A study of Mus musculus with 6 samples.

Results

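Motile cilia of the airway are built on a ring of doublet microtubules around a central pair. Radial spokes are T-shaped complexes that reach inward from each doublet, and their heads contact the projections of the central pair, through which signals that pattern the beat pass to the dynein arms. Loss of radial spoke or central pair proteins is a known cause of primary ciliary dyskinesia, a disease of impaired mucociliary clearance. A set of 9 such genes was followed in mouse tracheal epithelium. *Rsph1*, *Rsph4a* and *Rsph9* encode radial spoke head proteins. *Nme5* and *Nme9* encode proteins of the nucleoside diphosphate kinase family, of which *Nme5* is a radial spoke protein. *Spag6l*, *Spag16*, *Spag17* and *Hydin* encode proteins of the central pair apparatus. The genes were chosen by symbol, and all 9 were rows of the deposited table of 20483 genes.

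The cells were primary tracheal epithelial cells of C57BL/6 mice, 12 weeks old, differentiated at air-liquid interface, and were profiled by 3′ droplet scRNA-Seq. Of the 6 libraries, 3 came from *WT/WT* mice (numbered 1, 2 and 3) and 3 from *MIS/MIS* mice (MT1301, MT1306 and MT1383), which are homozygous for a *Dnaaf5* missense allele made with CRISPR-Cas9 that replaces a cysteine by a phenylalanine and also carries a synonymous change. *Dnaaf5* encodes a cytoplasmic factor for the assembly of axonemal dynein motors, and the allele is a knock-in that all cells of the animals carry. The values are counts of unique molecular identifiers (UMIs), which stand for captured transcript molecules, so that levels are given as CPM, the UMIs of a gene divided by all UMIs of the same mouse and cell type, on the usual counts-per-million scale.

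The 6 libraries held 23871 cells, between 100961835 and 153326568 UMIs per mouse and a median of 21328 to 35383 UMIs per cell, and 134 cells (0.561%) carried a barcode that also occurred in another library. The authors named 16 cell types, of which 4 were multiciliated, and each mouse contributed between 332 and 2155 multiciliated cells. *Dnaaf5* itself carries a missense change, so its RNA level does not check the genotype labels. Its level in Multiciliated3 was 64.4, 58.6 and 72.7 CPM in the *WT/WT* mice and 75.4, 68.6 and 70.8 CPM in the *MIS/MIS* mice, which overlapped. In Multiciliated1 it was 18.3, 18.6 and 13.8 CPM in *WT/WT* and 23.8, 22.9 and 26.1 CPM in *MIS/MIS* mice, each *MIS/MIS* mouse lying above each *WT/WT* mouse (log2 fold change 0.53 ± 0.15, SE; adjusted p = 0.994, limma-voom).

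The 4 multiciliated types differed in their markers, given as CPM of counts pooled over mice except where a range over mice is stated. *Foxj1*, the master regulator of motile ciliogenesis, was highest in Multiciliated2 (716 CPM), followed by Multiciliated3 (344 CPM). Multiciliated2 (857 cells) also held the highest levels of all 6 deuterosomal markers examined, such as *Ccno* (439 CPM against 8.29 CPM in Multiciliated3) and *Deup1* (364 against 14.1 CPM), genes of the stage at which centrioles are amplified. Multiciliated3 (2712 cells) and Multiciliated4 (146 cells) were high in *Tppp3* (2251 and 2866 CPM) and *Dynlrb2* (1264 and 3021 CPM). Multiciliated4 cells held a median of 10197 UMIs and 1.29% mitochondrial UMIs, against 26360 UMIs and 8.51% in Multiciliated3. Multiciliated1 (1108 cells) had the lowest *Foxj1* of the 4 (72.5 CPM). Its 7 secretory markers summed to between 28688 and 43992 CPM in the 6 mice, led by *Reg3g* (25460 CPM), while its 6 multiciliated markers summed to between 1738 and 2949 CPM. *Foxj1* and *Tppp3* (706 CPM) were still above their levels in every basal and secretory type. In Multiciliated2 too, the secretory sum (8271 to 12644 CPM) stood above the multiciliated one (4459 to 5913 CPM). Most of the secretory sum in Multiciliated1 was *Reg3g* and *Cyp2f2* (9318 CPM), and *Cyp2f2* was highest in Basal8 (9754 CPM). Multiciliated1 thus carried markers of both kinds, the secretory ones at the higher level, and its name is used below only as the label of that cluster.

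The 250 bases before the RefSeq start (GRCm38.p6) were available for 6 of the genes (*Rsph9*, *Nme9*, *Spag6l*, *Spag16*, *Spag17* and *Hydin*). They were searched on both strands for the X-box, the motif of RFX factors, spelled GTNNCC, 0 to 3 bases of any kind, and NGNAAC. They were also searched for its shorter form GTTGCC, which may overlap an X-box, and for the forkhead motif GTAAACA. The 3 promoters with an X-box match are shown (*Hydin*, *Spag16* and *Spag17*), followed by *Nme9* and *Rsph9*, whose windows held no match. The *Nme9* window lies inside the gene as GENCODE places it (chr9:99451475-99474751, plus strand). The bases before that GENCODE start were not searched. Capitals mark the matches.

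*Hydin*, chr8:110266727-110266976, plus strand: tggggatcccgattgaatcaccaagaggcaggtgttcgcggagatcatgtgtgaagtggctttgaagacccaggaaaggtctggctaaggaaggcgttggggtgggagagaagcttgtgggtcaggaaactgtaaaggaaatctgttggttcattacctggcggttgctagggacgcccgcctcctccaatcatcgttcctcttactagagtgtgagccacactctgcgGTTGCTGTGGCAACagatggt
*Spag16*, chr1:69826720-69826969, plus strand: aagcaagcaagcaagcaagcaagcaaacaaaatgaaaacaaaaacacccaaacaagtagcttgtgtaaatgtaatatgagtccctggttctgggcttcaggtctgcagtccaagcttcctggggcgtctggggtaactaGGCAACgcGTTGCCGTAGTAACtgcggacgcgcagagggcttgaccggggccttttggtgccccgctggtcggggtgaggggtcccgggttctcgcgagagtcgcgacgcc
*Spag17*, chr3:99885167-99885416, plus strand: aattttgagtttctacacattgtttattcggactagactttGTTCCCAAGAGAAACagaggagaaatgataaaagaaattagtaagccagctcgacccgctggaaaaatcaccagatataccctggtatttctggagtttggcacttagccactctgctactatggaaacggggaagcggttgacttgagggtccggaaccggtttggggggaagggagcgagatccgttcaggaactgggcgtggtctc
*Nme9*, chr9:99455993-99456242, plus strand: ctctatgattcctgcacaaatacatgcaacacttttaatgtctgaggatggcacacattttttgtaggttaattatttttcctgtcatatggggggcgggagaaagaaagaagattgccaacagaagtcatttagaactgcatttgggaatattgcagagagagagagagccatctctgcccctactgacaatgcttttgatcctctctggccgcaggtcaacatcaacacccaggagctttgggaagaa
*Rsph9*, chr17:46144201-46144450, minus strand: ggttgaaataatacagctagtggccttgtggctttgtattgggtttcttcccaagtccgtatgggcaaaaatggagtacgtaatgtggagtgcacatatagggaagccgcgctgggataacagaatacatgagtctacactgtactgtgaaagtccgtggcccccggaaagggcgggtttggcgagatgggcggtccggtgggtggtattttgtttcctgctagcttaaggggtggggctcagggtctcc

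An X-box match was present in 3 of the 6 windows, those of *Hydin*, *Spag16* and *Spag17*, with its first base 21, 103 and 209 bases before the start. A match was found in 4.42% of all 32851 promoters of the same length in the RefSeq table. The shorter form occurred in the promoters of *Hydin* and *Spag16* and in 10.4% of all promoters, and the forkhead motif in none of the 6 and in 3.17% of all. The windows of *Rsph9*, *Nme9* and *Spag6l* held none of these motifs, and that of *Nme9* may not be its promoter, since it lies inside the GENCODE gene. A match is a description of the sequence and not a binding site. *Rsph1* and *Rsph9* both lie on chromosome 17, and the genes spanned from 10.9 kb (*Rsph4a*) to 898 kb (*Spag16*).

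Across the 16 cell types, most UMIs of each of the 9 genes fell in multiciliated cells. The share of a gene's UMIs that fell in the 4 multiciliated types was 95.9% for *Rsph1*, 97.7% for *Rsph4a*, 84.7% for *Rsph9*, 92.3% for *Nme5*, 97.8% for *Nme9*, 97.5% for *Spag6l*, 97.2% for *Spag16*, 98.3% for *Spag17* and 98.8% for *Hydin*. The clusters were made from all genes, these included, so levels between types are a description without a test. *Spag16*, the central pair protein that carries WD repeats, was near the detection limit throughout, with 247 UMIs in all 23871 cells.

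**Figure D1:**
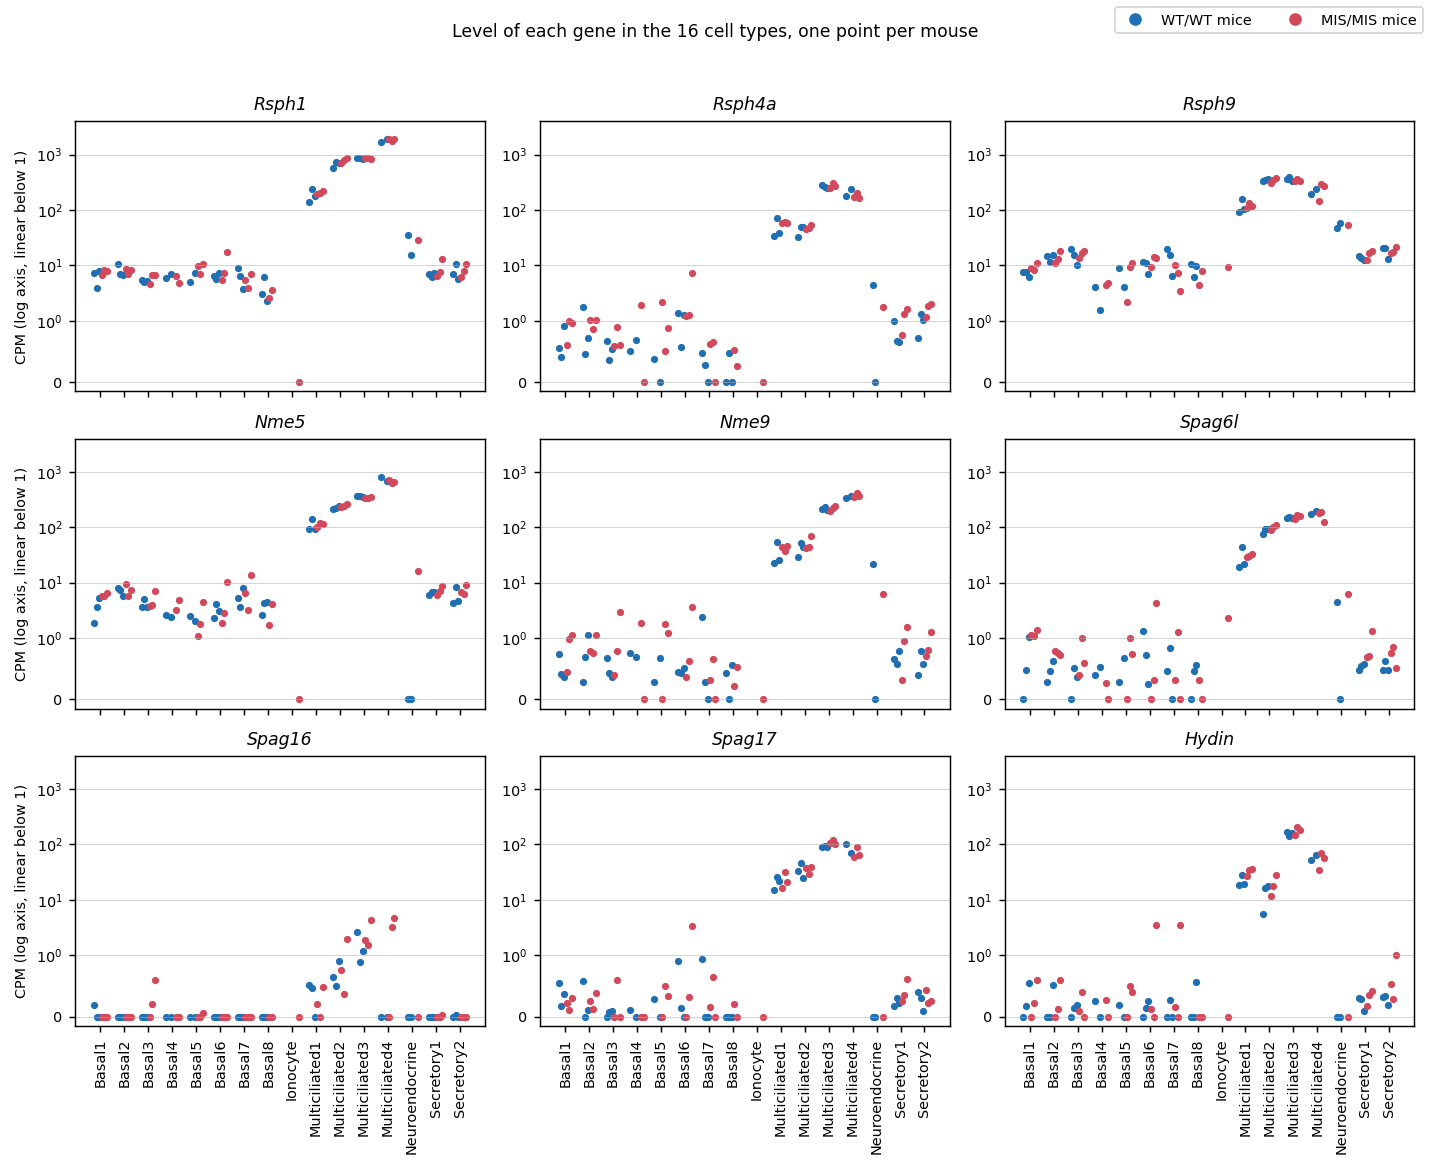
Level of each of the 9 genes in CPM (vertical axis, logarithmic above 1 and linear below) in the 16 cell types (horizontal axis), with 1 point per mouse that held at least 10 cells of the type. For each gene except *Spag16* the multiciliated types stand above basal and secretory types, and for *Spag16* the points of Basal3 (up to 0.599 CPM) overlap those of Multiciliated1 (0 to 0.508 CPM), Multiciliated2 and Multiciliated4. *Rsph9* in neuroendocrine cells stands at 48.1 to 58.6 CPM, between the secretory and the multiciliated values.

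*Rsph1*, a spoke head subunit, had its highest level in Multiciliated4 (1846 ± 108 CPM, SD, n = 5 mice). The next were Multiciliated3 (864 ± 18.3 CPM, n = 6) and Multiciliated2 (730 ± 99.1 CPM, n = 6), whose ranges (841 to 887 and 570 to 863 CPM) overlapped. Multiciliated1 followed at 197 ± 34.4 CPM, and then neuroendocrine cells at 26.3 ± 9.97 CPM (n = 3). *WT/WT* mouse 2 had 6 cells of Multiciliated4 and gave no level there.

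*Rsph4a*, a further spoke head subunit, was ordered differently. Multiciliated3 stood highest at 269 ± 22.4 CPM, followed by Multiciliated4 at 191 ± 31.6 CPM without overlap. Multiciliated1 (53.4 ± 14.3 CPM) and Multiciliated2 (46.0 ± 7.11 CPM) did not differ beyond their spread. Outside these types its highest mean was 2.18 CPM, in Basal6.

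*Rsph9*, another spoke head subunit, had levels in Multiciliated3 and Multiciliated2 that did not differ beyond their spread. They were 353 ± 24.8 CPM in Multiciliated3 and 348 ± 22.8 CPM in Multiciliated2, overlapping, then 230 ± 60 CPM in Multiciliated4 and 119 ± 23.8 CPM in Multiciliated1, which overlapped each other. *Rsph9* was also the gene with the largest share of UMIs outside multiciliated cells. All 3 neuroendocrine markers were highest in neuroendocrine cells (*Chga* 2241 CPM, counts pooled over mice). These cells held 53.1 ± 5.27 CPM of *Rsph9*, without overlap with the next type (Secretory2, 18.5 ± 3.26 CPM).

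*Nme5* differed from type to type without overlap between neighbours, from 110 ± 18.9 CPM in Multiciliated1 and 235 ± 16.3 CPM in Multiciliated2 to 355 ± 13.8 CPM in Multiciliated3 and 696 ± 68.5 CPM in Multiciliated4. *Nme9* stood at 372 ± 30.6 CPM in Multiciliated4 and 219 ± 17 CPM in Multiciliated3. Its levels in Multiciliated2 (46.5 ± 13.3 CPM) and Multiciliated1 (38.2 ± 12.3 CPM) overlapped. The 2 genes of this family thus differed in Multiciliated2, where *Nme5* stood above its Multiciliated1 level without overlap and *Nme9* overlapped it.

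Among the central pair genes, *Spag6l* was highest in Multiciliated4 (172 ± 26.9 CPM) and Multiciliated3 (152 ± 10.2 CPM), which overlapped, followed by Multiciliated2 (92.9 ± 11.6 CPM) and Multiciliated1 (29.4 ± 8.97 CPM). Its paralog *Spag6* is a separate row of the table, and the longest protein-coding transcripts of the pair were 82.7% identical over 2268 aligned bases and their last 300 bases 70.9% identical over 179 aligned bases. Whether reads were split between them was not tested. *Spag6* did not exceed 0.135 CPM in any multiciliated type.

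*Spag17*, which encodes a projection protein, was at 99.7 ± 11.4 CPM in Multiciliated3 and 77.7 ± 17.9 CPM in Multiciliated4, overlapping. It was at 34.9 ± 7.41 CPM in Multiciliated2 and 21.9 ± 6.34 CPM in Multiciliated1, which also overlapped. *Hydin*, the giant protein of a central pair projection, was highest in Multiciliated3 (166 ± 23.2 CPM) without overlap with the next type. Multiciliated4 (55.5 ± 13.2 CPM) and Multiciliated1 (27.2 ± 7.19 CPM) overlapped at their edges, and Multiciliated2, which overlapped Multiciliated1, was lowest of the 4 (16.2 ± 7.43 CPM). *Spag16* was at 2.07 ± 1.26 CPM in Multiciliated3, from 187 UMIs, and neighbouring multiciliated types overlapped in this order, whereas Multiciliated3 (0.897 to 4.36 CPM) and Multiciliated1 (0 to 0.508 CPM) did not overlap.

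The share of cells with a UMI was also taken, at the level of single cells. Every cell was thinned to 5000 UMIs, since the median depth ranged from 10197 UMIs in Multiciliated4 to 38781 in Multiciliated2, and no cell fell below that number (lowest 5061). After thinning, 96.8% of Multiciliated3 cells held *Rsph1*, 80.1% *Nme5*, 78.7% *Rsph9*, 69.5% *Rsph4a*, 61.8% *Nme9*, 56.1% *Hydin*, 53.1% *Spag6l*, 37.4% *Spag17* and 1.25% *Spag16*. In Basal1 cells, which are not ciliated, the same shares were 3.51% for *Rsph1*, 3.30% for *Rsph9* and 1.89% for *Nme5*, and at most 0.471% for the other 6 genes. Without thinning they were 99.8% for *Rsph1* and 94.1% for *Hydin* in Multiciliated3 (median 26360 UMIs), against 16.9% and 0.686% in Basal1 (median 28982 UMIs). Over the 10 basal and secretory types, the thinned share reached 9.79% for *Rsph9* and 3.62% for *Nme5* (both in Secretory2), 4.66% for *Rsph1* and 0.858% for *Rsph4a* (both in Basal6), and at most 0.793% for the other genes. Whether these shares come from RNA of other cells or from low expression was not tested. The genes differed in this. In secretory cells the mean CPM, as a share of that in Multiciliated3, was 4.53% for *Rsph9*, 1.89% for *Nme5*, 0.944% for *Rsph1* and 0.185% for *Hydin*.

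In Multiciliated2, *Hydin* was held by 9.10% of thinned cells and *Rsph4a* by 21.9%, whereas *Rsph1* was held by 77.5% and *Rsph9* by 66.5%. In Multiciliated1, 49.7% of thinned cells held *Rsph1* and 13.1% *Hydin*. A cell of Multiciliated3 held UMIs of a median of 8 of the 9 genes without thinning, and 99.0% of these cells held 5 or more. The corresponding medians were 6.5 genes in Multiciliated4, 6 in Multiciliated2 and 4 in Multiciliated1. In Multiciliated1 5.14% of cells held none of them, and in Multiciliated2 4.78%. In Basal1 the median was 0 genes, and 0.3% of cells held 5 or more.

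**Figure D2:**
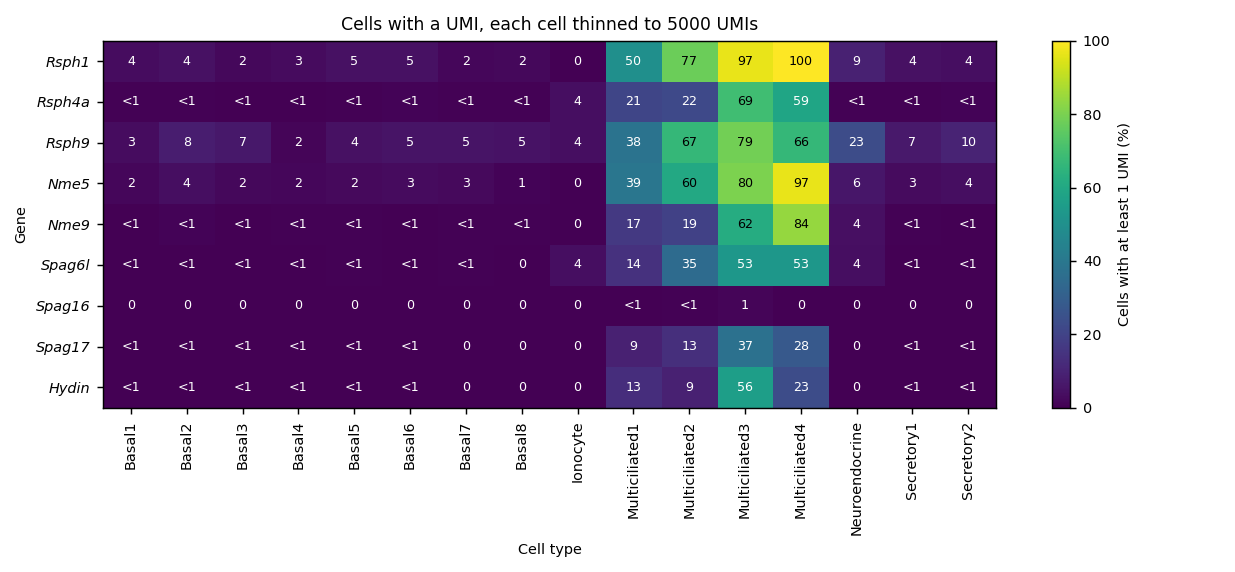
Share of cells (%, colour and printed number) with at least 1 UMI of each gene (rows) in each cell type (columns), with every cell thinned to 5000 UMIs and cells of the 6 mice pooled. Multiciliated3 and Multiciliated4 hold the highest shares for each gene except *Rsph9* and *Spag16*, with *Rsph1* in 96.8% and 100% of cells. *Rsph9* stands out in neuroendocrine cells at 23.3%.

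The 9 genes separated widely between Multiciliated3 and Multiciliated2, the type that held the deuterosomal markers. The ratio of CPM in Multiciliated3 to that in Multiciliated2 was taken within each mouse. Its mean over 6 mice was 0.02 ± 0.14 on the log2 scale (SD) for *Rsph9* and 0.26 ± 0.20 for *Rsph1*, beside a median of 0.22 over the 9508 genes of at least 10 CPM in either type. *Nme5* (0.60 ± 0.13) and *Spag6l* (0.72 ± 0.14) were higher in Multiciliated3 in each of the 6 mice.

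The remaining genes had larger ratios. *Spag16* had 1.30 ± 0.65 from few UMIs and *Spag17* 1.54 ± 0.35. *Nme9* had 2.28 ± 0.33, a 4.85-fold higher level, and *Rsph4a* 2.56 ± 0.31, a 5.90-fold higher level. *Hydin* had 3.50 ± 0.78, or 11.3-fold, with values of 4.94, 3.10 and 3.15 in the *WT/WT* mice and 3.60, 3.52 and 2.69 in the *MIS/MIS* mice. The mouse with the largest ratio, *WT/WT* mouse 1, had 17 UMIs of *Hydin* in its 55 cells of Multiciliated2. Within the spoke head alone, *Rsph9* and *Rsph4a* therefore differed in their ratio by more than the spread between mice, their ranges being -0.17 to 0.15 and 2.35 to 3.14.

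**Figure D3:**
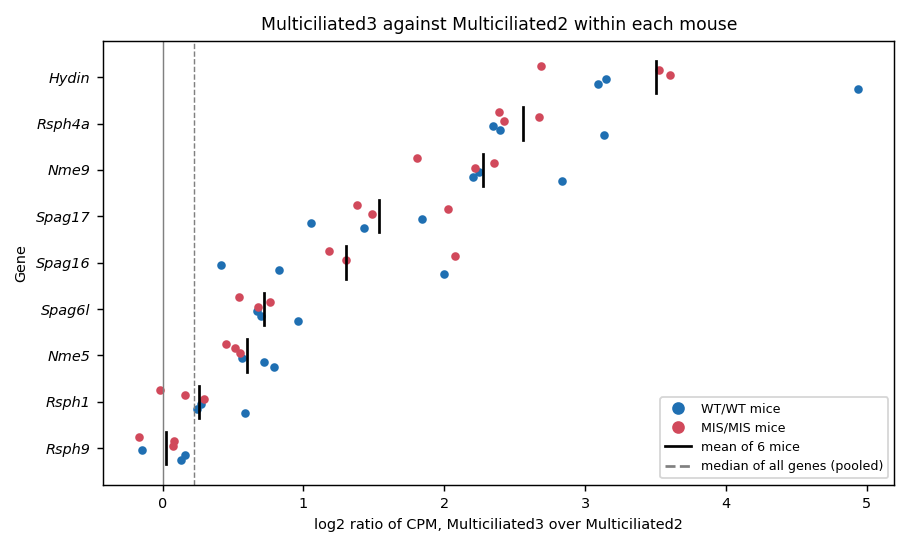
The log2 ratio of CPM in Multiciliated3 over Multiciliated2 (horizontal axis) for each gene (rows, ordered by mean), with 1 point per mouse, a black bar at the mean of 6 mice, a grey line at 0 and a dashed line at the median of all genes (0.22). The means extend from 0.02 for *Rsph9* to 3.50 for *Hydin*.

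Multiciliated4 differed from Multiciliated3 in both directions, in 5 mice. *Rsph1* (2.14-fold), *Nme5* (1.97-fold) and *Nme9* (1.72-fold) were higher in Multiciliated4 in each mouse, with the lowest log2 ratio at 0.62. *Hydin* was at 0.318 of its Multiciliated3 level, with log2 ratios between -2.06 and -1.34, and *Rsph9* at 0.646. *Rsph4a* was at 0.699 of it and *Spag17* at 0.759, and *Spag17* had log2 ratios on both sides of 0, as did *Spag6l* (1.12-fold). Lower depth and fewer mitochondrial UMIs in Multiciliated4 moved with these values, and their part in them was not tested.

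Multiciliated1 was lower than Multiciliated3 for each gene. For the 8 genes with a value in all 6 mice, the mean log2 ratio lay between -1.59 (*Rsph9*) and -2.65 (*Hydin*), with *Rsph1* at -2.15, *Rsph4a* at -2.38 and *Spag17* at -2.23. The members were thus nearer to one another there than in Multiciliated2. Secretory markers, given above, were high in these cells, and their part in the lower levels was not tested.

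Of the other 41 genes of radial spokes and the central apparatus that were listed, all were rows of the table, and 41 had their highest level in a multiciliated type. The share of UMIs in multiciliated cells was over 90% for 31 of them, against 8 of the 9 genes above. Exceptions included *Cfap20* (44.4%) and *Rsph3b* (59.5%). Of 36 with a ratio, 32 were higher in Multiciliated3 than in Multiciliated2, with a median log2 ratio of counts pooled over mice of 1.22 and a range of -1.47 (*Lrrc23*, a radial spoke gene) to 3.06 (*Rsph10b*). Of the 9 genes, *Hydin* alone lay outside this range. Over the 9508 genes of at least 10 CPM in either type the median ratio was 0.22, itself above 0. The shares of all genes beside these counts were not taken, so the counts are a description of the list.

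The genes whose pattern over the 16 cell types was most like that of the 9 were *Zfp474* (median Pearson r of log2(CPM + 1) with the 9 genes 0.982), *Dnali1*, which encodes an inner dynein arm light chain (0.980), and *Eno4* (0.980), among 11729 genes ranked. Over the 23 sums of multiciliated type and mouse, they were *Cfap52* (0.917, lowest r with any of the 9 genes 0.502), *6820408C15Rik* (0.914) and *Fbxo16* (0.913). *Cfap52* was among the 10 highest in both rankings. The types of a mouse share a library, and types differ in depth, so these values are descriptions. Among the 9 genes themselves, over the 23 sums, the highest r was between *Rsph1* and *Nme5* (0.974), and *Rsph9* with *Hydin* had one of 0.313.

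The genotypes were then compared within each multiciliated type, to see whether the spoke and central pair genes differ in cells with the *Dnaaf5* missense allele. In Multiciliated1, Multiciliated2, Multiciliated3 and Multiciliated4, and with the 4 types added together, none of the 9 genes passed an adjusted p of 0.05 (limma-voom on UMIs summed per mouse, Benjamini-Hochberg over all genes tested, lowest adjusted p of a member 0.896, limma). Over all genes tested, 1 of 11446 (0.00874%), 1 of 11674 (0.00857%), 3 of 13096 (0.0229%), 5 of 3145 (0.159%) and 1 of 14206 (0.00704%) passed, with *Wdfy1* among them each time. In Multiciliated3 the others were *Sult1d1* and *Fank1*. *Fank1*, one of the 10 genes most like the 9 over the 16 types, fell by 0.91 on the log2 scale (adjusted p = 0.00728, limma-voom). The Multiciliated4 sums include the 6 cells of *WT/WT* mouse 2. Genes that passed there included the mitochondrial *mt-Nd2* and *mt-Co1*, both higher in *MIS/MIS* mice. The median mitochondrial share of these cells was 0.918%, 0.472% and 0.840% in *WT/WT* and 2.16%, 1.32% and 1.70% in *MIS/MIS* mice. Its part in the Multiciliated4 values was not tested. At an unadjusted p under 0.05, 454 (3.97%), 408 (3.49%), 589 (4.5%), 174 (5.53%) and 614 (4.32%) genes passed in the same order. Of the members, *Hydin* in Multiciliated1 and *Spag17* in Multiciliated3 were below that unadjusted level. *Spag16* had too few UMIs to be tested in Multiciliated1, Multiciliated2 and Multiciliated4. *Rsph1*, *Rsph4a*, *Rsph9* and *Nme5* appear in a list that the study chose on these same libraries, so their direction there is no independent evidence.

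The spoke head genes overlapped between genotypes in each multiciliated type. In Multiciliated3, *Rsph1* was 855, 884 and 841 CPM in the *WT/WT* mice and 866, 887 and 852 CPM in the *MIS/MIS* mice. These values overlapped, and the log2 fold change was 0.02 ± 0.06 (SE; 95% interval -0.13 to 0.16). *Rsph4a* in the same cells was 283, 258 and 247 CPM in *WT/WT* and 246, 303 and 276 CPM in *MIS/MIS* mice (log2 fold change 0.06 ± 0.10), with overlap.

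*Rsph9* in Multiciliated3 was 369, 391 and 330 CPM in *WT/WT* and 331, 363 and 338 CPM in *MIS/MIS* mice, which overlapped (-0.07 ± 0.09). In Multiciliated2, *Rsph1* was 570, 746 and 698 CPM in *WT/WT* and 707, 793 and 863 CPM in *MIS/MIS* mice. The lowest value there was that of *WT/WT* mouse 1, and *WT/WT* mouse 2 lay above *MIS/MIS* mouse MT1301, so the groups overlapped (0.21 ± 0.11, adjusted p = 0.987, limma-voom; 0.12 without *WT/WT* mouse 1).

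The largest fitted difference of a spoke head gene was that of *Rsph4a* in Multiciliated1. It was 34.3, 71.4 and 37.8 CPM in *WT/WT* and 57.5, 60.4 and 59.2 CPM in *MIS/MIS* mice. *WT/WT* mouse 2 stood above all *MIS/MIS* mice and the others below them, so the groups overlapped (0.34 ± 0.21). The value was 0.64 without *WT/WT* mouse 2, 0.16 without *WT/WT* mouse 1 and 0.20 without *WT/WT* mouse 3, and 0.57 with cells thinned to 5000 UMIs.

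Of the *Nme* genes, *Nme5* in Multiciliated3 was 368, 371 and 356 CPM in *WT/WT* and 338, 339 and 357 CPM in *MIS/MIS* mice. *MIS/MIS* mouse MT1383 lay just above the lowest *WT/WT* mouse, and the log2 fold change was -0.08 ± 0.06. *Nme9* there was 210, 234 and 206 CPM in *WT/WT* and 200, 221 and 243 CPM in *MIS/MIS* mice, which overlapped (0.03 ± 0.09). In Multiciliated1 *Nme9* was 22.6, 54.9 and 25.8 CPM in *WT/WT* and 43.1, 36.7 and 45.9 CPM in *MIS/MIS* mice. *WT/WT* mouse 2 was again the highest of the 6 (0.37 ± 0.25, and 0.75 without that mouse, 0.16 without *WT/WT* mouse 1 and 0.21 without *WT/WT* mouse 3). In Multiciliated2 it was 29.3, 50.8 and 43.2 CPM in *WT/WT* and 42.9, 43.3 and 69.6 CPM in *MIS/MIS* mice, which overlapped (0.31 ± 0.23, and 0.04 without *MIS/MIS* mouse MT1383, 0.15 without *WT/WT* mouse 1 and 0.53 without *WT/WT* mouse 2).

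Among the central pair genes, *Spag17* in Multiciliated3 was 90.1, 94.0 and 88.3 CPM in *WT/WT* mice and 105, 119 and 102 CPM in *MIS/MIS* mice. Each *MIS/MIS* mouse lay above each *WT/WT* mouse. The log2 fold change was 0.26 ± 0.09 (95% interval 0.06 to 0.45; adjusted p = 0.978, limma-voom), so it did not pass over all genes. With cells thinned to 5000 UMIs it was 0.14, and the share of thinned cells with *Spag17* overlapped between genotypes, at 38.2%, 34.8% and 30.2% in *WT/WT* and 36.0%, 37.6% and 39.8% in *MIS/MIS* mice. Of the 13096 genes tested there, 643 (4.91%) had all *MIS/MIS* mice above all *WT/WT* mice, and of the 9 members only *Spag17* did. In Multiciliated1 (5.47% of genes), Multiciliated2 (4.76%) and Multiciliated4 (4.36%) 0 members did. With the types added together (6.84%) *Spag17* alone did, at 55.5, 58.5 and 58.0 CPM in *WT/WT* and 67.3, 92.3 and 62.7 CPM in *MIS/MIS* mice (0.33 ± 0.15, and 0.15 without *MIS/MIS* mouse MT1306 or 0.18 with thinned cells). *Spag17* overlaps *Spag17os* and *Wdr3* on the opposite strand, and the strand setting of the counting is not given in the sources used here.

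*Hydin* in Multiciliated1 was 18.3, 28.4 and 19.3 CPM in *WT/WT* mice and 27.3, 34.0 and 35.6 CPM in *MIS/MIS* mice. *WT/WT* mouse 2 lay above *MIS/MIS* mouse MT1301 (0.55 ± 0.17; adjusted p = 0.994, limma-voom). In Multiciliated3 *Hydin* was 168, 141 and 160 CPM in *WT/WT* and 145, 203 and 180 CPM in *MIS/MIS* mice, with overlap (0.17 ± 0.13). *Spag6l* there was 144, 150 and 148 CPM against 142, 169 and 158 CPM, with the *MIS/MIS* values on both sides of the *WT/WT* ones (0.08 ± 0.08).

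*Spag16* in Multiciliated3 was 2.57, 0.897 and 1.20 CPM in *WT/WT* and 1.89, 1.52 and 4.36 CPM in *MIS/MIS* mice, from 6 to 108 UMIs per mouse. The groups overlapped and the interval of the log2 fold change (0.88) extended from -0.40 to 2.16, so a difference was not detectable at this depth.

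**Figure D4:**
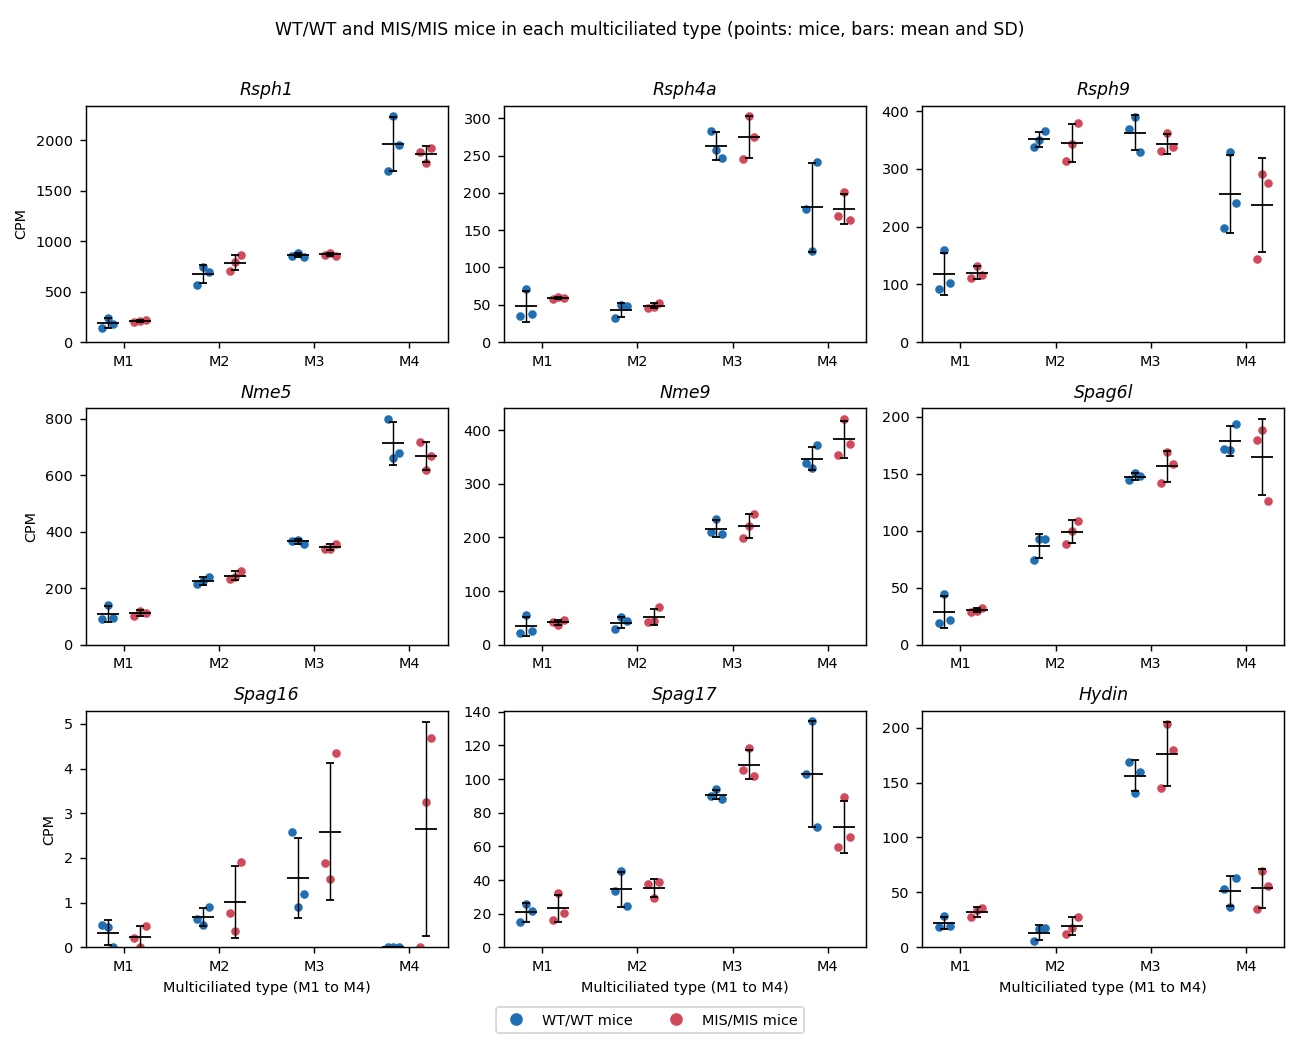
Level of each gene in CPM (vertical axes, linear from 0) in Multiciliated1 to Multiciliated4 (M1 to M4), with 1 point per mouse and the mean and SD of 3 mice per genotype as black bars. The *WT/WT* and *MIS/MIS* points overlap in every panel and type except *Spag17* in Multiciliated3, where 88.3 to 94.0 CPM stands below 102 to 119 CPM.

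The fitted differences of the members were described as a group by their counts and medians, without a test. In Multiciliated1, 8 of 8 tested members had a log2 fold change above 0, with a median of 0.14, beside 51.8% of all genes and a median of 0.01. In Multiciliated2 the numbers were 7 of 8 and 0.16, beside 48.8% of all genes, and in Multiciliated3 7 of 9 and 0.06, beside 49.2%. In Multiciliated4 3 of 8 were above 0, with a median of -0.03, beside 49.7%. With the types added together, 8 of 9 were above 0, with a median of 0.25, beside 51.5%.

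These counts and medians moved when 1 mouse was left out. In Multiciliated1 3 of 8 members were above 0 without *WT/WT* mouse 1 (median -0.05), 5 of 8 without *WT/WT* mouse 3 (0.09) or MT1306 (0.12), and 8 of 8 without *WT/WT* mouse 2 (0.40). In Multiciliated2 the median was 0.05 without MT1383, 0.08 without *WT/WT* mouse 1, where 5 of 8 were above 0, and 0.28 without *WT/WT* mouse 2. Each of these libraries thus moved the count or the median by more than 1.5 times, or turned the sign of the median. In Multiciliated1 and Multiciliated2, leaving out MT1306 moved only the count in Multiciliated1 so far. Its larger effects on the median in Multiciliated3, Multiciliated4 and the added types are given next.

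In Multiciliated3 the median was 0.01 without *WT/WT* mouse 3 and 0.02 without MT1306, with 5 of 9 above 0 each time, and 0.14 without MT1301. In Multiciliated4 it lay between -0.18 (without MT1306) and 0.02 (without *WT/WT* mouse 3). With the types added together it was 0.07, with 7 of 9 above 0, without MT1306. The direction of the group in Multiciliated1 and Multiciliated4 therefore depended on single mice. With cells thinned to 5000 UMIs, 6 of 8, 4 of 7, 6 of 8 and 2 of 6 tested members were above 0 in Multiciliated1 to Multiciliated4, with medians of 0.13, 0.01, 0.10 and -0.03.

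The added types depended on how many cells of each type a mouse held. Multiciliated3 made up 43.0% to 58.9% of the multiciliated cells in *WT/WT* mice and 55.0% to 70.2% in *MIS/MIS* mice. With equal numbers of each type drawn from every mouse (82, 55, 173 and 6 cells of Multiciliated1 to Multiciliated4), the log2 fold change was 0.17 for *Spag17* and 0.19 for *Hydin*, against 0.33 and 0.41 before. *Rsph4a* moved to 0.06 from 0.27. In the added sums without that draw, fewer cells of a type and less RNA per cell cannot be told apart.

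Of the markers of other cells, the summed basal markers moved with genotype. The 5 basal markers, all in the table, summed to 265, 227 and 150 CPM in Multiciliated3 of *WT/WT* mice and 97.3, 98.4 and 130 CPM of *MIS/MIS* mice, so that each *MIS/MIS* mouse was lower. They were also lower in each *MIS/MIS* mouse in Multiciliated1 (1850 to 2414 against 2507 to 3005 CPM) and Multiciliated2 (484 to 635 against 655 to 975 CPM). Pooled over mice, most of each sum was *Krt15* (2133, 589 and 103 CPM in Multiciliated1 to Multiciliated3). *Krt15* also stood at 3358 CPM in Secretory2. The genotypes were compared here on the sum only, and the share of all genes lower in each *MIS/MIS* mouse was not taken. None of the 5 basal markers was at 0 in those types, and their part in the values of the 9 genes was not tested. The 7 secretory markers overlapped between genotypes in each of the 4 types, as did the 6 deuterosomal markers in Multiciliated2 (1058 to 1394 and 1103 to 1314 CPM).

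**Figure D5:**
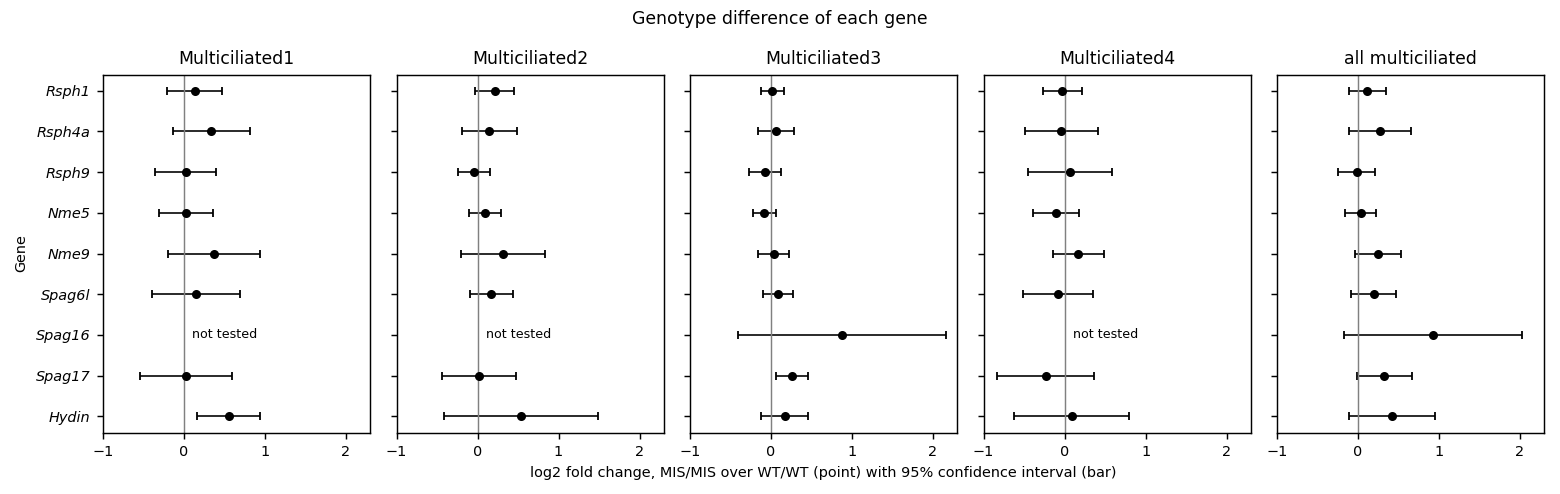
Log2 fold change of *MIS/MIS* over *WT/WT* mice (points) with its 95% interval (bars) for each gene (rows) in the 4 multiciliated types and their sum (panels). The intervals hold 0 except for *Hydin* in Multiciliated1 (0.16 to 0.94) and *Spag17* in Multiciliated3 (0.06 to 0.45), and *Spag16* is marked where it was not tested.

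Whether the genotype difference itself changed from type to type was tested in 1 fit over the types with the mouse as a block. Against the difference in Multiciliated3, 0 of 12894 genes passed in Multiciliated1 (0%, limma), with 288 (2.23%) at an unadjusted p under 0.05. In Multiciliated2 0 passed (0%), with 445 (3.45%) unadjusted, and in Multiciliated4 4 (0.031%), with 1090 (8.45%) unadjusted. No member passed in any of the 3. The member with the lowest p was *Rsph1*, whose difference was higher in Multiciliated2 than in Multiciliated3 by 0.22 ± 0.10 on the log2 scale (adjusted p = 1.00, limma).

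The other 41 radial spoke and central apparatus genes were tested in the same fits, and 0 of 35, 38, 39 and 25 tested genes passed in Multiciliated1 to Multiciliated4 (limma-voom). At an unadjusted p under 0.05, 4, 5, 3 and 0 of them were higher and 0 lower, beside 2.29%, 2.00%, 2.19% and 3.12% of all genes higher and 1.68%, 1.5%, 2.31% and 2.42% lower. The median log2 fold changes were 0.26, 0.19, 0.06 and -0.06. In Multiciliated3 the lowest p-values belonged to *Cfap47* (0.32 ± 0.10), *Cfap74* (0.31 ± 0.11), *Rsph10b* (0.29 ± 0.11) and *Mycbpap* (0.13 ± 0.08), each with an adjusted p of 0.978 (limma-voom). In Multiciliated3, 3 of the 39 were higher in each *MIS/MIS* mouse (*Cfap47*, *Rsph10b* and *Wdr93*), beside 4.91% of all genes. In Multiciliated1, Multiciliated2 and Multiciliated4, 2, 5 and 0 were, beside 5.47%, 4.76% and 4.36%. In each type 0 were lower in each *MIS/MIS* mouse, for which the share of all genes was not taken.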

How the data were processed

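Droplet 3′ scRNA-Seq (single cell 3′ v2 chemistry) was done by the authors on airway cultures from 6 mice, 3 of each genotype. Per the labels, reads were aligned to mm10 with Cell Ranger, with version 7.1.0 in the submitters' processing notes, and the paper's methods give another version. Later versions can count intronic reads by default, which bears on long genes. What the authors deposited are unnormalized UMI counts for each gene in each cell and a table of cluster names, both with a mistyped separator, and the cell totals in the 2 tables were equal for all 23871 cells. Cells of the *MIS/MIS* mice are named by animal numbers found in no sample title and were used as replicates of the genotype.

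Counts were summed per mouse and cell type and given as CPM. A type with fewer than 10 cells in a mouse gave no level. A plan named a negative binomial count test. Since the separator led the table to be recorded as another kind of value, the sums were tested by voom in limma 3.58.1 (R 4.3.3). TMM factors had trims of 0.3 and 0.05. Genes needed at least 15 counts in all. In at least 3 mice they also needed the CPM that 10 counts make at the median sum of the mice. Benjamini-Hochberg adjustment was used at 0.05. Over the genes tested, the sums of single multiciliated types held 73725 to 24753500 UMIs per mouse. All 9 genes were named in every comparison, and of the other 41 the 4 with the lowest p in Multiciliated3. The steps were tested on simulated data. The genes and lists were chosen with earlier results of these data known. Alternatives were relative log expression factors, no low-count filter, thinning to 5000 UMIs, the stated cell filters (2500 to 7500 genes, at most 25% mitochondrial, 23216 cells), equal composition and each mouse left out. limma-trend was added after the data were seen. The other steps used Biopython 1.88, matplotlib 3.10.9, pandas 2.3.3, scipy 1.17.1 and numpy 2.4.6 under Python 3.11.15. Positions and transcripts are of GENCODE on GRCm38, and promoters are of RefSeq. Protein sequences and promoters of the other 3 genes were not used here. Doublets were not called, and the human samples were not analysed here.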

Additional observations from a re-analysis of the deposited data

How the results depend on the processing

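None of the 9 genes passed the adjusted threshold under any alternative run. Of the member values under alternatives 417 kept their direction and 49 changed sign, at the values given here. With cells thinned to 5000 UMIs, the log2 fold change turned to -0.17 (*Rsph9*) and -0.013 (*Nme5*) in Multiciliated1, -0.025 (*Rsph4a*) and -0.19 (*Spag17*) in Multiciliated2, and -0.12 (*Rsph9*) and 0.021 (*Nme5*) in Multiciliated4. Thinning gave 0 genes higher in Multiciliated1, 1 lower in Multiciliated2, 2 lower in Multiciliated3 and 10 higher in Multiciliated4, and turned the ratio of Multiciliated3 to Multiciliated2 for *Rsph9* to -0.031. In Multiciliated4, no low-count filter gave 0.0085 (*Rsph1*) and 0.0031 (*Rsph4a*). There limma-trend, chosen after seeing the data, gave 0.041 (*Rsph4a*), -0.12 (*Rsph9*) and 0 genes higher. Equal composition gave -0.033 for *Nme5* and 1 gene lower. Relative log expression factors gave 5, 7 and 2 genes in the tests between types. The cause of these changes was not tested.

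With each mouse left out in turn, the log2 fold changes extended in Multiciliated1 from -0.077 to 0.20 (*Nme5*), -0.047 to 0.30 (*Rsph1*), -0.12 to 0.23 (*Rsph9*), -0.17 to 0.16 (*Spag17*) and -0.051 to 0.51 (*Spag6l*). In Multiciliated2 they extended from -0.0021 to 0.26 (*Rsph4a*), -0.11 to 0.028 (*Rsph9*) and -0.19 to 0.31 (*Spag17*), and in Multiciliated3 from -0.025 to 0.097 (*Nme9*), -0.011 to 0.042 (*Rsph1*) and -0.016 to 0.14 (*Rsph4a*). In Multiciliated4 they extended from -0.29 to 0.22 (*Hydin*), -0.18 to 0.0077 (*Nme5*), -0.11 to 0.056 (*Rsph1*), -0.17 to 0.18 (*Rsph4a*), -0.20 to 0.31 (*Rsph9*) and -0.24 to 0.052 (*Spag6l*), and over all types from -0.036 to 0.069 (*Nme5*) and -0.094 to 0.050 (*Rsph9*). The ratio of types for *Rsph9* extended from -0.0057 to 0.059. The genes higher numbered 0 to 2 in Multiciliated2 and 3 to 11 in Multiciliated4, those lower 0 to 2 in Multiciliated3 and 0 to 2 in Multiciliated4, and those in the tests between types 0 to 2 for each of the 3. In Multiciliated4 11 genes were higher without *MIS/MIS* mouse MT1301, 8 without *WT/WT* mouse 2 and 3 without *WT/WT* mouse 3 or MT1383. In Multiciliated2 0 were higher without *WT/WT* mouse 1 and 2 without MT1301, and in Multiciliated3 0 were lower without *WT/WT* mouse 1 and 2 without *WT/WT* mouse 3, MT1301 or MT1383. For *Spag17* in Multiciliated3 the values extended from 0.18 to 0.32.

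On the mean of log-normalized values per cell, the difference between Multiciliated3 and Multiciliated2 was 1.13 for *Hydin* and 0.27 for *Rsph9*. The planned count tests, DESeq2 and edgeR, were not run. No paired analysis was possible because cells of the *MIS/MIS* mice are named by animal numbers found in no sample title and not shared with the *WT/WT* mice. Depth limits *Spag16* (247 UMIs) and Multiciliated4, where 1 mouse had 6 cells.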
